A study of Homo sapiens with 4 samples.

Results

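The 10 genes described here are those of the YAP-TEAD pathway: the coactivators YAP1 and WWTR1 (the gene of TAZ), the DNA-binding factors TEAD1, TEAD2, TEAD3 and TEAD4, and the target genes CCN1, CCN2, ANKRD1 and AMOTL2. They were taken by name from 19974 protein-coding genes of chromosomes 1 to 22 and X. Chromatin accessibility was read from ATAC-seq peak lists of HCT116, a human colorectal carcinoma cell line, in which the transposase Tn5 inserts adapters into open DNA. Control cells carried the empty lentiviral vector pSin, FOXD2 cells carried pSin with the full coding sequence of the forkhead transcription factor FOXD2, and each group had 2 libraries. Both groups were selected with puromycin at 5 ug/ml, so the vector and the drug are shared by all 4 libraries, and each library was made from 50000 lysed cells with 10 PCR cycles. Nothing in the labels tells if replicate libraries were grown as separate cultures, so differences within a group may be technical only. In bulk material, fewer cells with an open site and less opening per cell cannot be told apart. The question the design puts to these genes is whether open sites at and around them differed when FOXD2 was expressed.

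YAP1 and TAZ are held in the cytoplasm or degraded when the kinases of the Hippo pathway phosphorylate them. Otherwise they enter the nucleus, where they bind TEAD proteins, which recognise short DNA sites, and switch on genes of growth, matrix and the cytoskeleton. In the intestine the pathway is known for its part in regeneration of the epithelium and in colorectal tumours.

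An open region is a stretch covered by intervals of 1 or more of the 4 libraries that overlap by at least 1 bp after merging. The lists held 64675 to 82739 intervals per library and gave 122856 regions, of which 32.5% were in all 4 libraries. The second FOXD2 library had the shortest list and the first FOXD2 library the longest, and list length was held equal only in an alternative. A region is called gained when both FOXD2 libraries and neither control library had an interval there, and lost in the reverse case. With 2 libraries against 2 the smallest exact two-sided permutation p is 0.333, so no exact permutation test could pass 0.05, and each count is read against its share over all regions. Peak strength is the percentile of an interval's fold enrichment within its own library (100 is the strongest), taken from the strongest interval of the library in the region. A region in all 4 libraries ranks higher when both FOXD2 percentiles lie above both control percentiles, and lower in the reverse case. The number of tags (Tn5 insertion signal) piled up at a summit was recovered from each interval's fold and p-value.

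The promoters whose letters bear on the target genes come first. The TEAD site GGAATG was searched on both strands in 300 bases around each annotated 5′ end, 250 before and 50 after, in the RefSeq promoters of GRCh38.p14. It was present in 12.2% of 22132 such promoters of 15812 protein-coding genes. Promoters were matched for 7 of the 10 genes (10 promoters). CCN2, which encodes the matricellular protein CTGF, had 3 TEAD sites, and 3 or more were found in 23 promoters (0.104%). ANKRD1, which encodes a muscle ankyrin repeat protein also called CARP, had 2 TEAD sites, a number reached or passed by 1.06% of promoters. It also had 1 match, TGATTCA, to the loose AP-1 pattern TGANTCA, in which N is any base (present in 6.15%). AP-1 factors are dimers of FOS and JUN proteins. YAP1 had 1 TEAD site. The 250 bases before the 5′ end of these 3 genes are printed 5′ to 3′ on the gene's strand, with TEAD sites and the AP-1 match in capitals. They lie at chr6:131951373-131951622 on the minus strand (CCN2), chr10:90921088-90921337 on the minus strand (ANKRD1) and chr11:102110197-102110446 on the plus strand (YAP1).
CCN2: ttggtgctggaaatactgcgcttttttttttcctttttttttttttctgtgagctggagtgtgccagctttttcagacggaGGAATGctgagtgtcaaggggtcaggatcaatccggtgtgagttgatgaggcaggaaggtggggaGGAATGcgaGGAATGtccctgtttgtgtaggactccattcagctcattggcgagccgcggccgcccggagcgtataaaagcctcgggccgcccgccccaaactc
ANKRD1: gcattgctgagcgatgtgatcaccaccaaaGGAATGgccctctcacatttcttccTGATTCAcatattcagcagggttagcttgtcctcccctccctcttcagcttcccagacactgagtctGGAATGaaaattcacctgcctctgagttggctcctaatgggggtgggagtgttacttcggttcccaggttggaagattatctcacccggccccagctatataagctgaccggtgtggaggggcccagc
YAP1: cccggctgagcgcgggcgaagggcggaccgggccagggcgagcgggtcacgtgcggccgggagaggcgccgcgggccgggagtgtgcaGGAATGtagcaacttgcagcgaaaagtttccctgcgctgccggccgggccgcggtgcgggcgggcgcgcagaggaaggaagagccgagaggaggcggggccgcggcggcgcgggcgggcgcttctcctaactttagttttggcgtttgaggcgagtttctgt

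Among the other promoters matched, the inner 5′ end of AMOTL2 (an angiomotin-like protein that binds YAP1) had 1 TEAD site in the reverse orientation. The outer 5′ end of WWTR1 had 1 match to the forkhead site TGTTTAC, also reversed and present in 2.85% of promoters. Both are shown as 30 bases with the site in capitals, at chr3:134374499-134374528 and chr3:149703309-149703338, each 5′ to 3′ on the minus strand, which is the gene's strand.
AMOTL2: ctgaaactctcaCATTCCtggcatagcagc
WWTR1: gtcattatagatGTAAACAacatgtgtgct
The CArG box, the site of serum response factor, was in 1.25% of promoters and in none of the 10 matched here. These matches describe letters in a window and not binding.

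The pathway's genes were open in every library. All 10 had an interval within 1000 bp of an annotated end in each of the 4 libraries, against 66.4% of all protein-coding genes, and none gained or lost its gene-end peak (0.426% and 0.861% of all genes did). In the genes and 100 kb on each side lay 237 regions, no region belonging to more than 1 gene. Of these, 91 were in all 4 libraries (38.4%), 20 in 3, 38 in 2 and 88 in 1. Per 100 kb of window the regions were densest around TEAD3 (15.7), AMOTL2 (12.7) and TEAD2 (11.7) and sparsest around CCN2 (3.94) and YAP1 (4.64). Control libraries held 153 and 140 of the 237 regions, and FOXD2 libraries 168 and 127, so the groups overlapped. As shares these were 64.6%, 59.1%, 70.9% and 53.6%, and the same libraries held 61.7%, 56.8%, 65.6% and 50.8% of all regions.

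Gained and lost regions around these genes were about as frequent as elsewhere. There were 10 gained regions (4.22%, against 3.89% of all regions) and 7 lost regions (2.95%, against 3.87%). All 17 were among the 222 regions away from the ends of the 10 genes, of which they made up 4.50% gained and 3.15% lost. Of all regions away from the ends of every protein-coding gene, 4.41% were gained and 4.21% lost. The sets are not quite alike, since the 222 include 22 regions at ends of other genes, with 1 gained and 0 lost. Of the 91 regions in all 4 libraries, 14 ranked higher with FOXD2 (15.4%, against 15.9% of 39933 such regions) and 17 ranked lower (18.7%, against 21.8%). The median difference of FOXD2 minus control was -0.85 percentile points around these genes and -1.05 over all shared regions, where the 2 controls differed from each other by a median of 6.83 points and the 2 FOXD2 libraries by 8.57. Counted over the pathway, the shares of gains, losses and rank calls were thus near the background. YAP1, TEAD3, TEAD4, CCN1 and CCN2 had no gained and no lost region. WWTR1 held 7 of the 17, AMOTL2 and TEAD2 3 each, and TEAD1 and ANKRD1 2 each.

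**Figure D1:**
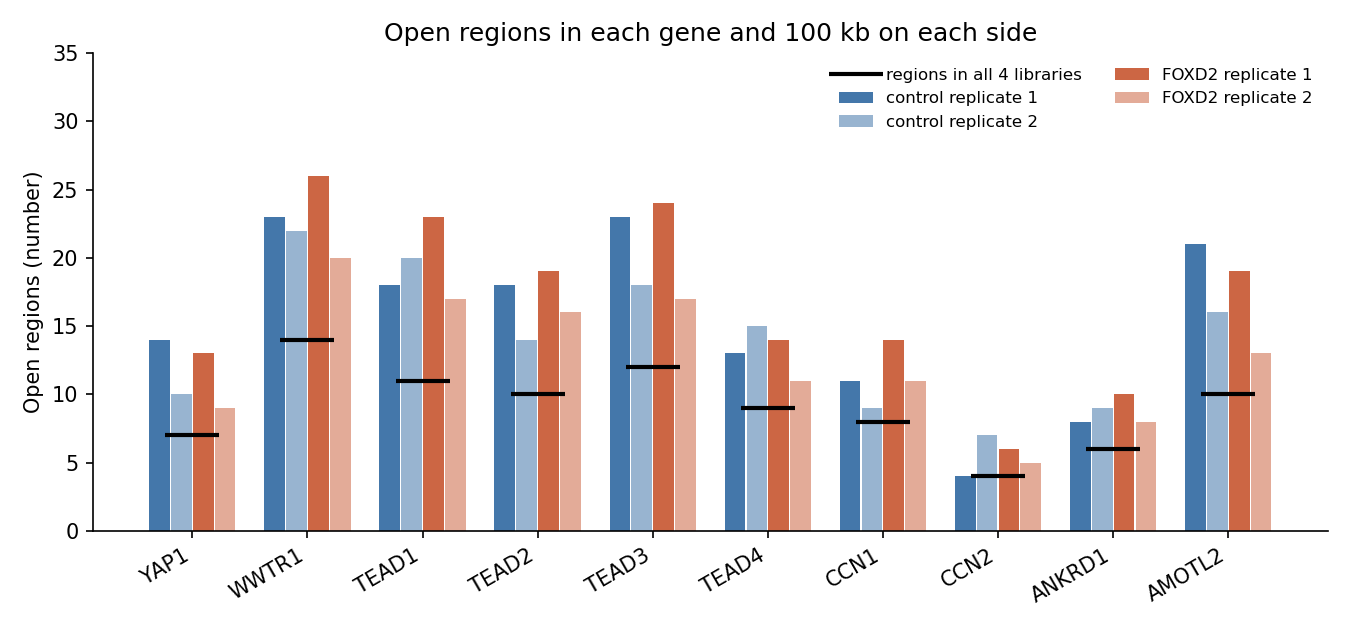
Number of open regions in each gene and 100 kb on each side (vertical axis) for the 10 genes, with 1 bar per library and a black line at the number found in all 4 libraries. The first FOXD2 library has the tallest bar, alone or shared, at 6 genes, and no gene has both FOXD2 bars above both control bars.

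YAP1 lies at chr11:102110447-102233424 on the plus strand. Its gene-end region, chr11:102109929-102112320, spanned the 5′ end and had percentiles of 57.0 and 58.5 in the controls and 73.2 and 60.4 with FOXD2. Both FOXD2 values were above both control values, as in 17.2% of shared gene-end regions. The summit held 78 and 77 tags in the controls against 77 and 56 with FOXD2, so by tags no FOXD2 library was above a control. The strongest interval of the second FOXD2 library was not at the promoter but at chr11:102111538-102112320, inside the gene. Its interval over the 5′ end had a percentile of 41.7 and 45 tags. The rank order at the YAP1 promoter thus turned on which summit stood for that library, and the difference of 9.05 points became -0.30 when summits were merged in place of whole intervals. It was 2.63 without FOXD2 1 and 15.5 without FOXD2 2. The TEAD site lay 162 bases before the 5′ end, and the nearest summit of each library was 3 to 26 bp from it. The 2 strongest distal regions around YAP1 had high ranks in every library. One, chr11:102268033-102269042, is in the intergenic stretch 157586 bp downstream of the 5′ end and had percentiles of 95.8, 94.0, 91.7 and 94.8. The other is the end of BIRC3, an apoptosis inhibitor, at chr11:102317079-102317836, with 96.6, 95, 97.2 and 93.7.

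WWTR1, on the minus strand at chr3:149517235-149724788, had the most gained and lost regions of the 10 genes and, with TEAD1, the most regions. Of its 36 regions, 14 were in all 4 libraries, 4 were gained and 3 lost, 3 ranked higher and 4 lower. Over all regions 3.89% were gained and 3.87% lost, and of all shared regions 15.9% ranked higher and 21.8% lower. The inner 5′ end, at position 149658025, was open in all libraries (chr3:149657481-149659087), with percentiles of 88.3 and 82.2 in the controls and 81.2 and 82.6 with FOXD2. The summit there held 117 and 103 tags in the controls and 79 and 68 with FOXD2, which lie below both controls. No library had an interval within 1000 bp of the outer 5′ end at 149703273, where the forkhead match lies.

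The largest rank difference at any of the 10 genes was inside WWTR1, at chr3:149575705-149576613, 81412 bp downstream of the inner 5′ end. The percentiles were 16.7 and 18.3 in the controls and 82.0 and 78.1 with FOXD2, a difference of 62.6 points. A difference of this size or more in the same direction was found at 5 of 39933 shared regions (0.0125%), this one included. Fold enrichment was 4.04 and 4.1 in the controls against 8.51 and 7.77 with FOXD2, and the -log10 q was 10.2 and 10.1 against 31.8 and 25.9. Tags at the summit differed less, with 35 and 34 in the controls and 54 and 47 with FOXD2. Their exact 95% Poisson intervals, which cover counting error only, were 24.4 to 48.7 and 23.5 to 47.5 in the controls and 40.6 to 70.5 and 34.5 to 62.5 with FOXD2, and overlapped. The local background that the authors' fold divides by was 7.92 and 7.54 tags in the controls and 5.46 and 5.18 with FOXD2. By the percentile of summit tags the difference was 17.1 points, and by that of -log10 q it was 35.7. Each control list had 2 separate intervals in the region and each FOXD2 list 1, and the summits of the stronger ones fell at 149576440 and 149576434 in the controls and at 149576416 in both FOXD2 libraries.

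Other sites inside WWTR1 differed in both directions. At chr3:149581698-149582284 the percentiles were 64.6 and 63.2 in the controls and 89.6 and 78.3 with FOXD2, a rank higher by 20.0 points, while the tags were 56 and 59 against 59 and 45. At chr3:149586846-149587267 the order was the reverse, with 43.3 and 81.5 in the controls and 27.1 and 34.8 with FOXD2. That difference was -12.3 points without control 2 and -50.5 without control 1. Inside the gene, 2 regions were present in the controls alone. One was chr3:149580237-149580575, with percentiles of 12 and 38.1, and the other chr3:149604566-149604916, closer to the 5′ end, with 31.8 and 45.5. A gained region, chr3:149618934-149619687, had percentiles of 18.2 and 34.8 in the FOXD2 libraries. Upstream of the inner 5′ end, still within the annotated gene, chr3:149713857-149714879 ranked lower, with 46.5 and 28.3 in the controls and 11.1 and 10.8 with FOXD2, and so did chr3:149717424-149717756, with 61.7 and 66.9 against 52.7 and 22. The first difference was -17.4 points without control 1, and the second -11.5 without FOXD2 2 and -42.2 without FOXD2 1. A weak gained region, chr3:149715305-149715649 (12.6 and 10.8), lay between them. In all, 17 regions overlapped the WWTR1 gene itself, of which 2 were gained, 2 lost, 2 ranked higher and 3 lower, and the libraries held 14 and 10 of them in the controls and 10 and 9 with FOXD2.

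Beyond the 3′ end of WWTR1 lies TM4SF4, a gene of the transmembrane 4 L6 family. Its end, chr3:149473546-149474023, was gained with percentiles of 84.0 and 92.2, the strongest gained region around the 10 genes. Inside TM4SF4, chr3:149487632-149487932 ranked higher by 33.3 points (51.8 and 41.6 in the controls, 78.9 and 81.1 with FOXD2), while chr3:149489076-149489382 was lost (63.9 and 86.8 in the controls). The remaining gained region of the window, chr3:149443783-149444214, was intergenic, with 51.8 and 45.9. On the other side, a site inside ANKUB1, chr3:149771696-149772016, ranked lower by 32.5 points, from 72.2 and 85.0 to 54.8 and 37.4. The end of COMMD2, chr3:149752075-149752864, was among the strongest intervals of each list, with percentiles of at least 99.2. Any link of the TM4SF4 and ANKUB1 sites to WWTR1 was not tested.

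**Figure D2:**
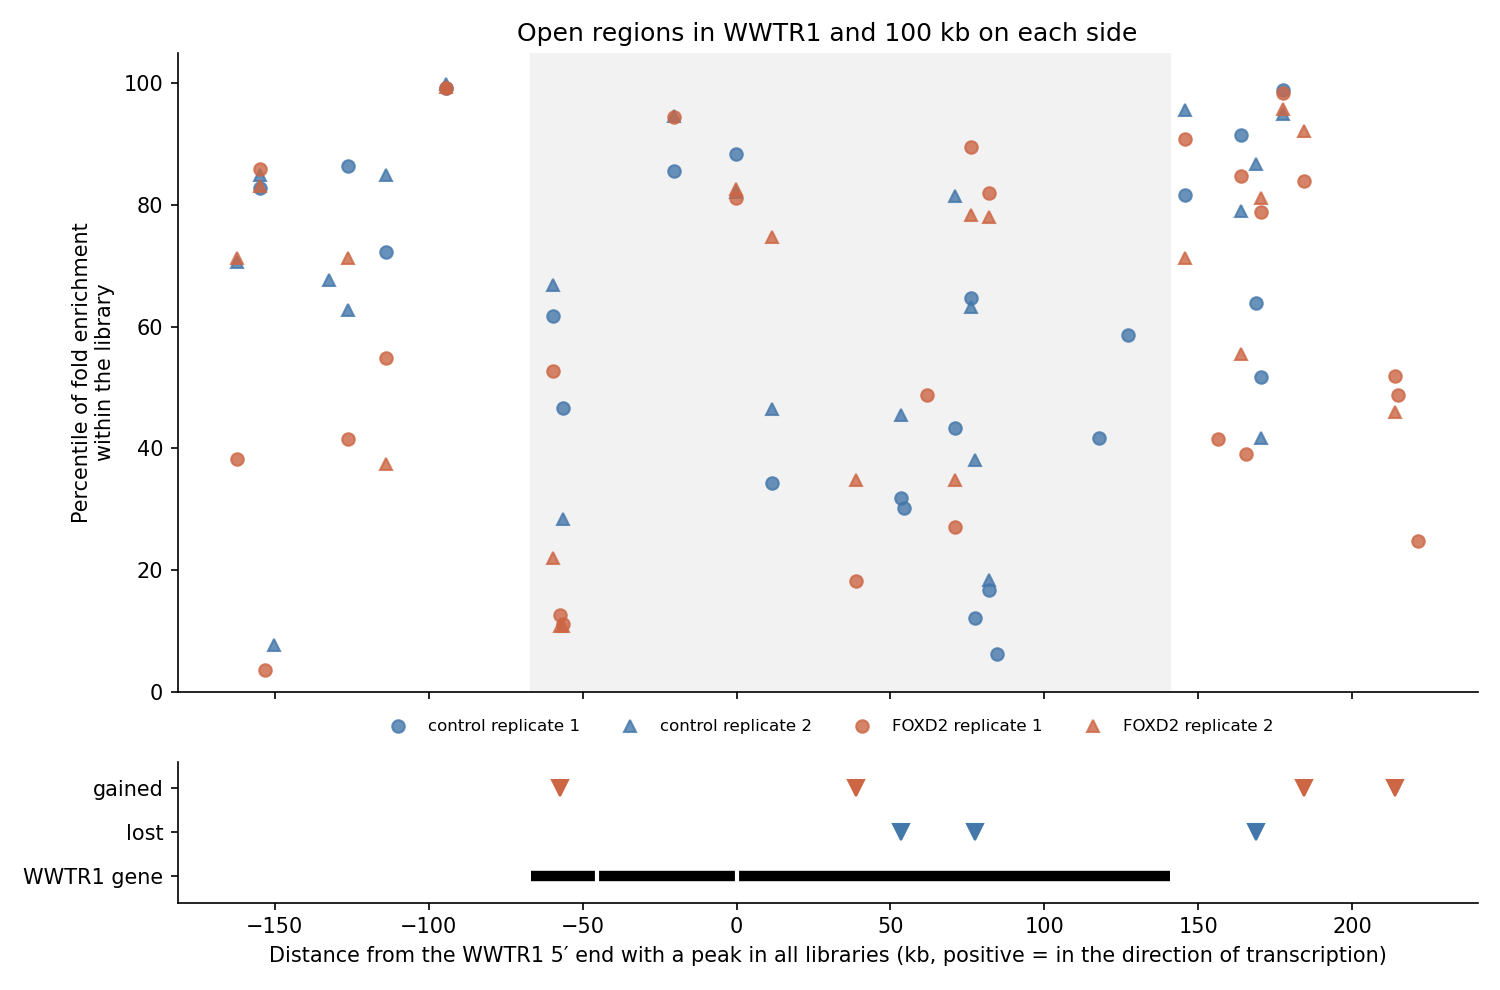
Percentile of fold enrichment within the library (vertical axis) of each open region of the WWTR1 window against its distance in kb from the inner WWTR1 5′ end (horizontal axis), with 1 symbol per library holding the region. Shading and the black bar mark the gene, white gaps in the bar the 2 annotated 5′ ends, and triangles the 4 gained and 3 lost regions, and at about 80 kb both FOXD2 symbols (82.0 and 78.1) stand far above both control symbols (16.7 and 18.3).

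Of the 4 TEAD genes, whose proteins share the TEA DNA-binding domain, TEAD1 and TEAD2 had gained or lost regions and TEAD3 and TEAD4 had none. TEAD1 lies at chr11:12674421-12944737 and had 36 regions, 24 of them inside the gene away from its ends. The region at the lower end, chr11:12673921-12674825, was one of the strongest gene-end regions of the pathway, with percentiles of 92.1 and 90.5 in the controls and 91.0 and 84.2 with FOXD2, and 130 and 95 tags against 102 and 75. Beside it, chr11:12674955-12675361 was present in control 2 (34.5) and FOXD2 1 (5.7). The groups overlapped at this end by both measures.

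Inside TEAD1, 2 regions were gained and none lost. The stronger, chr11:12723772-12724085, had percentiles of 50.3 and 53.0 and 40 and 43 tags in the FOXD2 libraries, the highest tag numbers among the 10 gained regions. The other, chr11:12851921-12852437, had percentiles of 39.1 and 27.0. The stronger one lay close to a shared region, chr11:12724375-12725097, that ranked lower, with 63.7 and 68.9 in the controls and 47.5 and 57.0 with FOXD2. Farther into the gene, chr11:12746577-12747038 ranked lower, with 91.9 and 91.5 in the controls and 66.1 and 77.2 with FOXD2. Its tags were 54 and 46 against 26 and 27, and the rank difference of -20.0 points was reached or passed by 7.16% of shared regions. In contrast, chr11:12693506-12694259 ranked higher, with 63.2 and 53.9 in the controls and 82.5 and 77.0 with FOXD2. Outside these sites, the strongest distal regions of the window, such as chr11:12599316-12600053 with 98.3, 70.0, 95.5 and 75.5, differed more within a group than between groups.

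TEAD2, on the minus strand at chr19:49340595-49362416, had 26 regions. The region that was open in all libraries near its end, chr19:49363363-49364153, lay 947 bp upstream of the outer 5′ end and is also at the end of the neighbouring gene DKKL1. It had the most tags of the 11 shared gene-end regions of the 10 genes, 158 and 151 in the controls and 131 and 98 with FOXD2, at percentiles of 80.8, 79.5, 80.4 and 77.5. Directly over the TEAD2 5′ ends the intervals were weak. At chr19:49361439-49361867 the percentiles were 21.7 and 3.5 in the controls and 5.3 in FOXD2 1, and chr19:49362277-49362476 was in FOXD2 2 alone, at 2.1. Away from the ends, regions inside SLC6A16 (chr19:49331639-49331878, 61.4 and 50.5) and KASH5 (chr19:49403822-49404264, 36.0 and 50.2) were gained. A region inside SLC17A7, chr19:49436362-49436771, was lost (8.3 and 35.7 in the controls). The only shared region of the window to rank higher was inside TEAD2 itself, chr19:49347292-49348191, with 73.9 and 70.0 in the controls and 77.2 and 82.1 with FOXD2, a difference of 7.67 points. Of the 3 that ranked lower, 2 were at ends of other genes: chr19:49338806-49339661, with 44.4 and 47.5 in the controls and 21.2 and 21.1 with FOXD2, and chr19:49451684-49452133, with 47.2 and 50.6 against 20.6 and 35.5.

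TEAD3 lies at chr6:35473597-35497079 on the minus strand, in a gene-rich stretch. Its 5′ end was covered by a wide region, chr6:35496347-35498175, with low percentiles, 22.1 and 42.4 in the controls and 37.9 and 41.5 with FOXD2. The tags were not low, at 85 and 93 in the controls and 82 and 79 with FOXD2, and the local background in the controls was 19.1 and 16.8 tags. None of its 35 regions was gained or lost, and of the 12 in all libraries 3 ranked higher and 3 lower. The largest differences of the window were inside PPARD, a nuclear receptor gene near its far edge, and had opposite signs. At chr6:35400852-35401363 the percentiles were 15.8 and 48.1 in the controls and 69.4 and 68.1 with FOXD2, with 21 and 31 tags against 69 and 56. At chr6:35392017-35392575 they were 28.0 and 62.5 against 7.9 and 5.1, while the tags (24 and 37 against 25 and 23) overlapped. Without control 1 the first difference was 20.7 points in place of 36.8, and without control 2 the second was -21.5 in place of -38.7. The end of TULP1, chr6:35511658-35512346, ranked higher by 22.9 points, from 32.3 and 22.7 to 64.9 and 35.9, and by 8.43 without FOXD2 1 and 37.4 without FOXD2 2. The strongest distal region, at the end of FANCE (chr6:35452062-35453005), ranked slightly lower, with 91.5 and 86.9 in the controls and 84.7 and 81.9 with FOXD2.

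TEAD4, at chr12:2959397-3040676, had 24 regions, none gained or lost. Both annotated ends of the gene were open in every library. At the lower end, chr12:2958585-2960238, the percentiles were 63.9 and 62.6 in the controls and 57.2 and 54.1 with FOXD2, and the tags 73 and 84 against 69 and 54. This was the only gene-end region of the 10 genes to rank lower, by 7.59 points, a call that 18.1% of shared gene-end regions share. At the higher end, chr12:3041199-3041930, the groups overlapped, with 66.7, 76.9, 69.8 and 62.2. Its strongest distal regions were the ends of FOXM1 and RHNO1 (chr12:2876449-2878205) and of RHNO1 and TULP3 (chr12:2890190-2891463), where the groups overlapped too.

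Among the target genes, CCN1, which encodes the matricellular protein CYR61, lies at chr1:85580761-85583950. Its gene-end region, chr1:85580474-85581581, had percentiles of 49.4 and 50.4 in the controls and 50.3 and 64.5 with FOXD2. The tags were 115 and 108 in the controls and 88 and 82 with FOXD2, so both FOXD2 libraries had fewer, while the ranks overlapped. None of its 17 regions was gained, lost or ranked higher. The 1 that ranked lower, chr1:85606937-85607624, lies 22987 bp beyond the higher end and went from 83.2 and 85.1 to 82.9 and 72.6. The strongest distal region, chr1:85628787-85629842, had 86.8, 92.0, 72.6 and 93.7, the lowest value being that of FOXD2 1.

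CCN2 lies at chr6:131948176-131951372 on the minus strand and had the fewest regions, 8, of which 4 were in all libraries. The region over its 5′ end, chr6:131950050-131951586, had percentiles of 61.2 and 83.7 in the controls and 87.4 and 82.2 with FOXD2. Tags were 53 and 85 in the controls and 84 and 66 with FOXD2. Control 1 stood below the other 3 libraries by both measures, and the groups overlapped. All 3 TEAD sites printed above, at 169, 104 and 95 bases before the 5′ end, were inside the interval of every library. The summit was 115 to 189 bp from them in control 2 and both FOXD2 libraries, at the same base, 131951349, and 782 to 856 bp away in control 1, whose summit lay inside the gene at 131950682. Upstream, chr6:131995970-131996306 ranked higher, with 73.0 and 61.8 in the controls and 84.7 and 82.9 with FOXD2.

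ANKRD1, at chr10:90912096-90921087 on the minus strand, had the largest rank difference of any gene end of the pathway. The region chr10:90921127-90921696 begins 40 bp upstream of the 5′ end and had percentiles of 18.6 and 73.4 in the controls and 87.1 and 77.8 with FOXD2. The difference was 36.4 points, a size reached or passed by 0.604% of shared regions. The peak was small, with 10 and 21 tags in the controls and 26 and 21 with FOXD2, and the exact 95% Poisson intervals of all 4 overlapped, from 4.80 to 18.4 in control 1 up to 17.0 to 38.1 in FOXD2 1. Control 1 was far below the other 3 libraries, with a -log10 q of 3.74, and without it the difference was 9.07 points (63.8 without control 2). The upstream TEAD site, 220 bases before the 5′ end, and the AP-1 match, at 195 bases, were inside the interval of every library. The TEAD site at 128 bases was inside the interval of control 2 and FOXD2 1 and outside that of control 1 and FOXD2 2.

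Elsewhere in the ANKRD1 window, 1 region was gained and 1 lost. The gained region, chr10:90859298-90859737, had percentiles of 19.1 and 15.2, and the lost region, chr10:90939754-90940029, 58.6 and 16.7. Of the 6 regions in all libraries, 3 ranked higher and 1 lower. Over all shared regions, 15.9% ranked higher and 21.8% lower. Besides the gene end, those ranking higher were a site inside HTR7 and the end of RPP30. The HTR7 site, chr10:90847302-90848103, had 74.1 and 73.0 against 88.0 and 92.0. The RPP30 end, chr10:90871752-90872460, had 92.4 and 95.9 against 96.0 and 99.1. Its difference of 3.38 points was reached or passed by 28.6% of shared regions. At the HTR7 site the tags were 28 and 26 in the controls and 27 and 28 with FOXD2, and overlapped. The nearest distal region, chr10:90911590-90912050, 9037 bp downstream, did not separate the groups, with 89.3, 87.6, 88.6 and 74.7.

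AMOTL2 lies at chr3:134355345-134375417 on the minus strand, and 23 of its 28 regions were between genes. The merged region at its 5′ ends, chr3:134374005-134375480, had percentiles of 68.5 and 65.3 in the controls and 52.6 and 73.7 with FOXD2. Tags were 131 and 115 in the controls and 85 and 97 with FOXD2. The ranks overlapped and the tags were lower in both FOXD2 libraries. The control intervals covered the inner 5′ end and stopped at 134375341 and 134375339, short of the outer 5′ end at 134375417, while the FOXD2 intervals reached 134375480 and 134375449 and covered both. The TEAD site of the inner 5′ end was covered in every library, 29 to 124 bp from the summits. A further gene-end region, chr3:134373634-134373838, was in control 1 alone, at 1.7. The 2 lost regions were weak, chr3:134326859-134327181 at 4.1 and 34.4, and chr3:134357904-134358144, inside the gene, at 17.5 and 36.5. The gained region, chr3:134447474-134447982, had 13.9 and 17.2. Of its 10 regions in all libraries 1 ranked higher and 2 lower, both lower ones intergenic: chr3:134308342-134308782, with 50.9 and 59.3 in the controls and 22.3 and 44.8 with FOXD2, and chr3:134312868-134313863, with 36.8 and 36.3 against 26.5 and 12. The strongest distal region, chr3:134426907-134428050, did not separate the groups, with 75.4, 83.4, 79.8 and 81.4.

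Set side by side, the 11 gene-end regions present in all libraries gave 2 that ranked higher (YAP1 and ANKRD1), 1 that ranked lower (the lower end of TEAD4) and 8 that overlapped. Tags tell a different order. Divided by the genome-wide background of the library (1.68 and 1.71 tags in the controls, 1.84 in both FOXD2 libraries), summit tags were lower in both FOXD2 libraries at 8 of the 11 and higher at none, while TEAD1, CCN2 and ANKRD1 overlapped. Over all 13065 shared gene-end regions, 65.7% were lower and 1.08% higher by this measure. The median ratio of FOXD2 to control was 0.725 at these gene ends and 0.765 over all gene ends. WWTR1 had a ratio of 0.616, CCN2 was near equality at 1.01, and ANKRD1, with its small peak, was at 1.40. Control 1 was the lowest library at both CCN2 and ANKRD1, and these ratios depend on it. Tags over background at CCN2 were 31.5 and 49.6 in the controls and 45.6 and 35.9 with FOXD2. At ANKRD1 they were 5.94 and 12.2 in the controls and 14.1 and 11.4 with FOXD2. The lower tag numbers at the ends of the pathway's genes are thus also seen over gene ends in general.

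**Figure D3:**
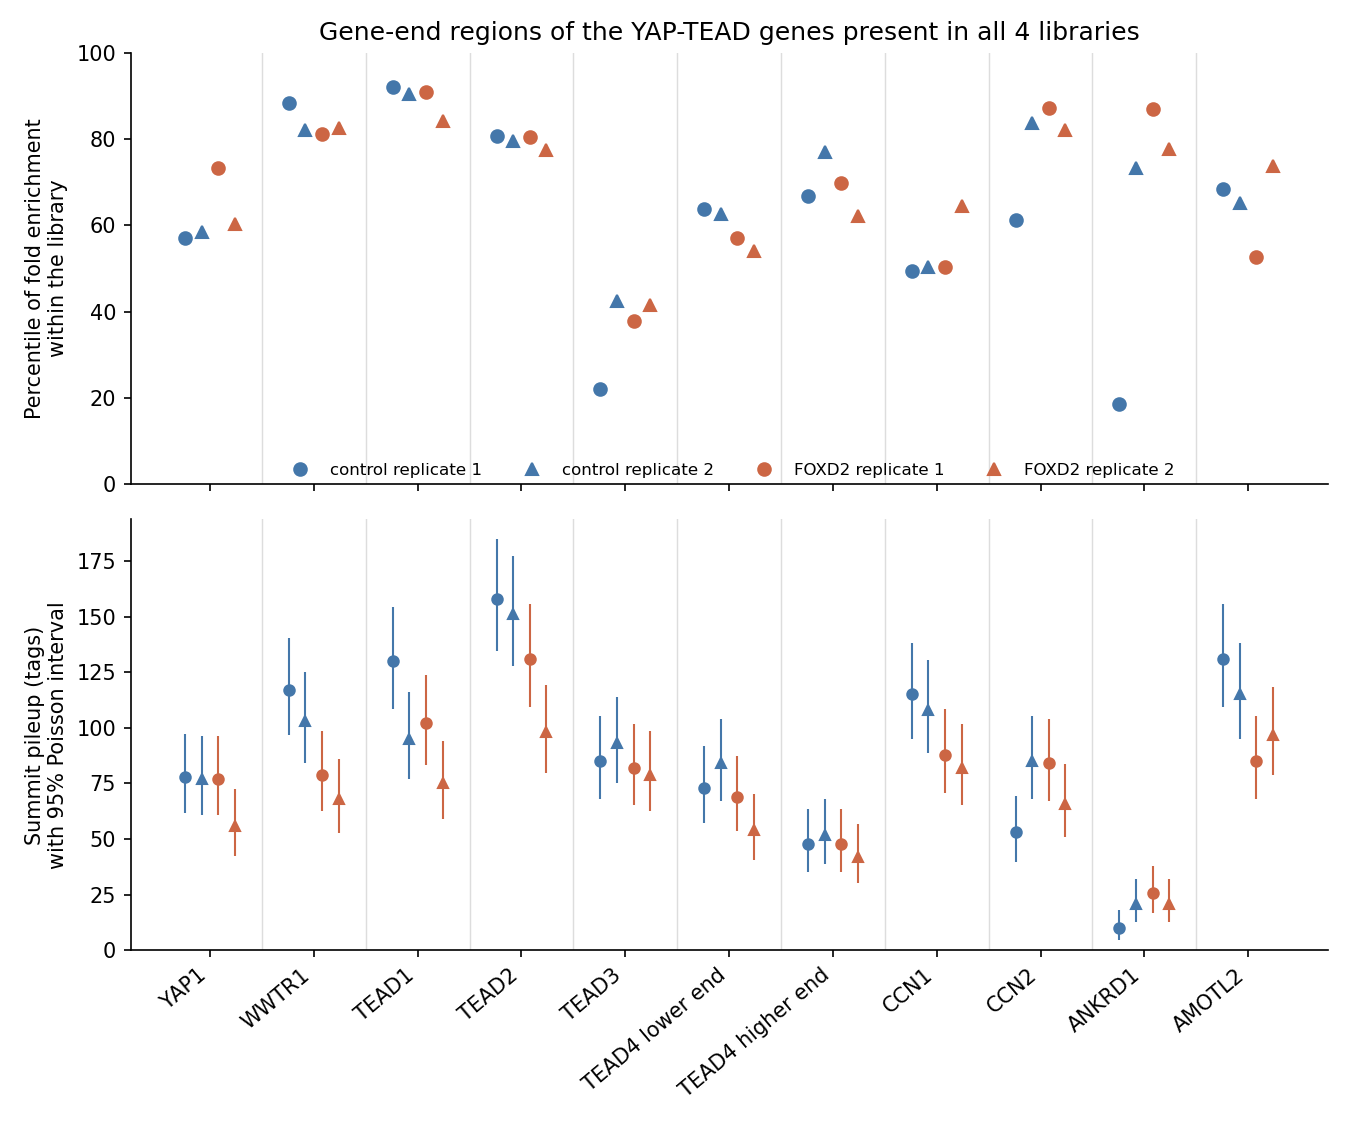
Percentile of fold enrichment (upper axis) and summit tags with exact 95% Poisson intervals (lower axis) for the 11 gene-end regions present in all 4 libraries, with 1 symbol per library. At ANKRD1 the first control (18.6, 10 tags) stands apart from the other 3 libraries. At WWTR1, TEAD2, TEAD3, the lower end of TEAD4, CCN1 and AMOTL2 both FOXD2 libraries have fewer tags than both controls.

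The sites away from the gene ends were described by where they lay. Inside the 10 genes were 61 such regions, of which 18 were in all libraries, 4 gained and 3 lost. At the ends of other genes were 22, of which 16 were in all libraries, 1 was gained (TM4SF4) and none lost. Inside other genes there were 57 (17 in all libraries, 2 gained, 2 lost), and between genes 82 (29, 3 and 2). Gained regions were mostly of middle or low rank, with a median percentile of 37.6 in FOXD2 1 and 40.3 in FOXD2 2, and medians of 17 and 19 tags. Lost regions had medians of 17.5 and 36.5 in the 2 controls. The lowest summit in any list held 8 or 9 tags. Where local background was high, weakly ranked intervals held more. Examples were 37 tags at chr19:49362277-49362476 (FOXD2 2, percentile 2.1) and 49 at chr3:134373634-134373838 (control 1, percentile 1.7). A region absent from a list can thus hold tags below what the caller reported, and more of them in such stretches.

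**Figure D4:**
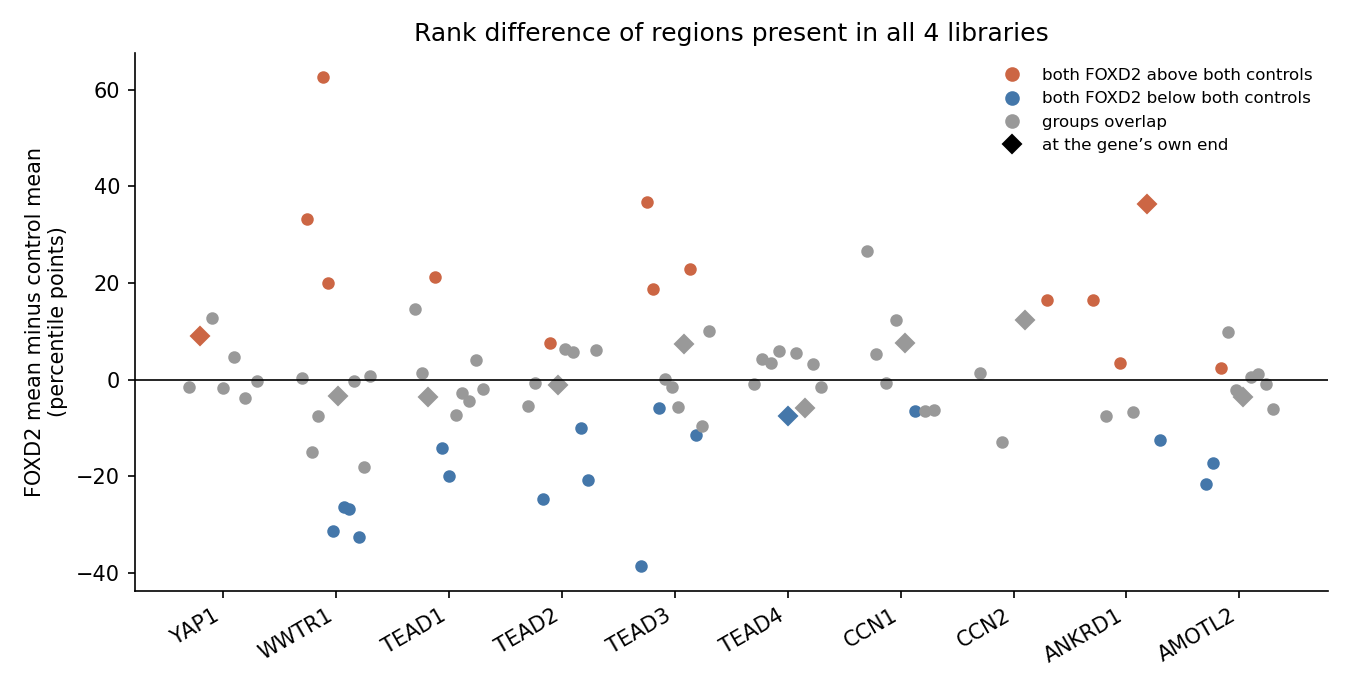
Difference of the group means, FOXD2 minus control, in percentile points (vertical axis) for the 91 regions present in all 4 libraries, grouped by gene, with diamonds at the gene's own end. Of the points, 14 have both FOXD2 values above both controls, 17 both below and the others overlap, and the highest point is the WWTR1 site at 62.6.

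The genes next to these in the pathway were described from lists of 48 genes. Of 28 upstream kinases and regulators, 25 had a gene-end peak in every library, none gained or lost one, and their windows held 688 regions with 17 gained (2.47%) and 25 lost (3.63%). Of their 243 shared regions, 35 ranked higher (14.4%) and 58 lower (23.9%). Over regions near any protein-coding gene the shares were 3.87% gained, 3.78% lost, 15.8% higher and 21.7% lower. The kinase LATS2, which phosphorylates YAP1 and TAZ, had 2 gained and 0 lost regions, and its upstream kinase STK3 (MST2) had 4 and 2. AMOTL1 had 3 gained and 1 lost. Lost regions outnumbered gained ones at WWC1 (0 gained, 3 lost), WWC2 (0 and 2) and SCRIB (1 and 3). All these genes were named because their gained and lost regions differed by 2 or more. In the same list DLG1 had 0 gained and 0 lost regions, and LLGL1 0 and 1. Of the 4 VGLL genes, whose proteins compete with YAP1 for TEADs, 2 had a gene-end peak in every library. VGLL2 had one in both controls and in neither FOXD2 library, as did 0.861% of all protein-coding genes. None of the 15 regions in the VGLL2 window was lost, so the intervals of both controls at its end were in different regions.

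Of 16 further targets, 14 had a gene-end peak in every library. Their windows held 357 regions with 21 gained (5.88%) and 12 lost (3.36%), and 21 of 134 shared regions ranked higher (15.7%) and 36 lower (26.9%), beside the same shares over all genes. CCDC80 had 2 gained and 0 lost and ASAP1 had 4 and 2. MYOF, which encodes a membrane repair protein, had 0 gained and 3 lost. By rank, CCDC80 had 1 higher and 0 lower of 4 shared regions, ASAP1 5 and 4 of 15, and MYOF 0 and 7 of 15. Over regions near any protein-coding gene, 15.8% ranked higher and 21.7% lower. The median rank difference of shared regions was -1.10 points for the kinases and regulators, 2.56 for the VGLL genes and -2.07 for the further targets, against -1.01 over regions near any protein-coding gene.

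As a check of the cell type, 9 of 12 colon epithelium markers had a gene-end peak in every library (75%, against 66.4% of all protein-coding genes). VIL1 and KRT20 had one in some libraries and CDH17 in none. The share of this list is near that of all genes, so alone it says little of the cell type. A gene-end peak in every library was found for 3 of 8 fibroblast markers, 1 of 8 leukocyte markers and 1 of 8 endothelium markers. The FOXD2 gene itself had a gene-end peak in all 4 libraries. The gene ends of the leukocyte marker CD3E (lost) and the endothelium marker CDH5 (gained) were the only marker ends called. Over all genes 0.861% of ends were lost and 0.426% gained. The part of other cell types in the results was not tested. By numbers of regions per library, the genes most like WWTR1 (23, 22, 26 and 20) were CBX1, at a Euclidean distance of 0, and EPS15L1 and GPSM1 at 1, with PLCXD2 and SSU72 tied at 1. They had 1 to 3 gained and 0 to 2 lost regions against 4 and 3 at WWTR1. WWTR1 was taken for this comparison because it had the most gained and lost regions of the pathway's genes. Its higher counts therefore follow from how it was chosen.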

How the data were processed

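ATAC-seq of 4 HCT116 libraries, 2 with empty vector and 2 with FOXD2, was analysed from 1 peak list per library in hg38. The submitters' processing notes name MACS2 2.2.7.1, Bowtie2 2.3.4.1 and cutadapt 3.4 besides bedtools and Picard. Their roles and parameters, not given in the sources used here, could not be checked. The deposited intervals carry the authors' fold enrichment (a ratio to local background), the -log10 p and the -log10 q, all per interval and called on each library alone. The authors' deposited score, a whole number made from the -log10 q, was not used. Intervals on other chromosomes than 1 to 22 and X (0.208 to 0.251%) were left out.

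Intervals overlapping by at least 1 bp were merged to regions, assigned to a gene within 100 kb, and to its end within 1000 bp of a RefSeq 5′ end, or of either end where no strand was at hand (TEAD1, TEAD4 and CCN1). Summit tags and local background were solved from the fold and the p-value, with the p matched within 0.01 for 100% of intervals. The steps were tested on simulated data. Used were Python 3.11.15, pandas 2.3.3 and scipy 1.17.1. Total reads per library are unknown, and Poisson intervals cover counting error only. With 2 libraries a group no exact permutation test could pass 0.05.

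Members and lists were chosen with earlier results of these data known. Named regions are the gene ends, the gained and lost regions, strong distal regions (from the top 3 per gene by mean percentile) and the 5 largest rank differences in each direction. A few shared regions whose groups did not overlap were added after their values were seen (inside WWTR1 and TEAD1 and around TEAD2 and AMOTL2). Other pathway genes are named where a gene end was gained or lost or where gained and lost regions differed by 2 or more. Alternatives were other peak thresholds, list lengths, region definitions, windows, rank measures and leaving out each library.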

Additional observations from a re-analysis of the deposited data

How the results depend on the processing

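Counts around the 10 genes kept within 1.5 times of those reported (10 gained, 7 lost, 14 higher, 17 lower) with intervals of -log10 q of 5 or more, lists of equal length, summit windows and 50 kb windows, and the higher and lower counts also with other rank measures. The measure by summit tags and leaving out libraries at gene ends were chosen after seeing the data. Counting only regions whose nearest gene is the member left 4 gained, 5 lost, 8 higher and 10 lower. Fewer regions were then counted, 116 in place of 237. Lost regions outnumbered gained ones under this setting, the reverse of the reported order. Of the 41 regions then in all libraries, 19.5% were higher and 24.4% lower, against 15.4% and 18.7% as reported. Of the 10 gained and 7 lost regions, 7 and 5 remained with the stricter q and with equal lengths. A gene-end peak in every library was found for 9 genes under those 2 settings, ANKRD1 being the exception, and for 10 with a narrower gene-end distance. It was also found for 10 with a wider distance and without each library in turn. A wider distance cannot lower the count and fewer libraries make the rule easier to meet, so these settings did not test it. The YAP1 gene-end difference reversed to -0.30 with summit windows and -0.415 by summit tags.

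With 1 library left out, a group of 1 needs less to be called: gained counts were 15 to 42, lost 10 to 35, higher 26 to 34 and lower 30 to 37, the highest gained count without FOXD2 replicate 2 and the highest lost count without control replicate 2. Over all regions, gained ones also rose, from 4777 to 22597 without FOXD2 replicate 2. Lost ones rose from 4758 to 19198 without control replicate 2. Without FOXD2 replicate 2, 34% of shared regions around the 10 genes were higher and 34% lower, against 37.5% and 33.1% over all. Without control replicate 2 these were 28.4% and 36.8%, against 27.3% and 38.5%. The rise is thus not particular to these genes. With the replicate block, comparing libraries of the same number, 21 regions were higher and 25 lower (23.1% and 27.5%, against 23.2% and 31.0% over all regions). The labels do not say that the numbers pair libraries, and with 2 pairs this was not tested further. Sequencing depth, which the lists do not hold, limits calls of absence.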
